A study of Bos taurus with 6 samples.

Results

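Integrins are the receptors that hold cells to the extracellular matrix. Each is a pair of 1 alpha and 1 beta chain, and the pair decides which matrix protein is bound. Laminin is bound by ITGA6, ITGA3 and ITGA7 with ITGB1, and by ITGA6 with ITGB4. Fibronectin is bound by ITGA5 with ITGB1, and vitronectin and other RGD proteins (those with an arginine-glycine-aspartate motif) by ITGAV with ITGB5 or ITGB3. In pluripotent stem cells these receptors attach the colony to its feeder layer or coating, and the cytoplasmic tail of the beta chain passes the contact on to kinases and the actin skeleton.

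The 10 subunits examined were ITGA2, ITGA3, ITGA5, ITGA6, ITGA7, ITGA9, ITGAV, ITGB1, ITGB4 and ITGB5, taken by name. Earlier results of these data were known when the subunits were chosen. They were 10 of 25 integrin subunits found among the 19163 genes of the count table. The bovine embryonic stem cell line F7 was derived from IVF embryos. RNA-seq was performed on F7 grown on mouse embryonic fibroblasts (MEFs) that were treated with mitomycin C, which leaves them alive but unable to divide (MC-F7), and on F7 grown on MEFs fixed with methanol, which are dead (MT-F7). Both groups had 3 libraries, came from the same line at 15 passages, and were cultured in CTFR, a medium with FGF and the Wnt pathway inhibitor IWR1. The medium was changed daily for MC-F7 and every other day for MT-F7, so that the feeder and the feeding schedule cannot be told apart. All values come from this 1 line. In both groups the harvested cells were left in a gelatin-coated dish for a time and only floating cells were collected, a step that sorts cells by how fast they attach.

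The libraries held 21958386 to 24933430 counts, and 3 counts, the smallest amount taken as detected, were 0.120 to 0.137 counts per 1000000 counts (CPM). Mitochondrial genes took 16.3% to 28.3% of the counts, and within each group replicate 3 had the most. The feeders are mouse cells and the reads were counted on bovine genes. The paper reports that a larger share of reads aligned to the cattle genome in MT-F7, and proposes less feeder contamination there. How many feeder reads were counted was not tested. Over all tested genes, 11.9% were called higher and 11.3% lower in MT-F7 (adjusted p under 0.05 by edgeR). The 4 called pluripotency markers of 5 tested (POU5F1, NANOG, LIN28A and DPPA4) were lower in MT-F7. Their list summed to 577 to 626 CPM in MT-F7 against 936 to 1562 CPM in MC-F7. Of 19 tested fibroblast markers, 7 were higher and 1, TWIST2, was lower in MT-F7, and 11 were not called. The sum of the 20 listed was 947 to 1001 CPM in MT-F7 against 487 to 580 CPM in MC-F7. None was at 0 in all libraries. FBLN1 was a large part of the difference in the sum, at 108 CPM in MC-F7 and 327 CPM in MT-F7 (means). Neural ectoderm markers summed to 1224 to 1344 CPM in MT-F7 and 594 to 682 CPM in MC-F7, with 4 of 7 tested called higher. Those called were PAX6, RAX, LHX2 and SIX3, and NES, OTX1 and TUBB3 were not called. LHX2 (34.6 CPM in MC-F7 and 324 CPM in MT-F7) and SIX3 (86.5 and 287 CPM) were a large part of the difference in the sum (means). NES was 312 CPM in MC-F7 and 412 CPM in MT-F7, and TUBB3 was 202 and 174 CPM (means). Leukocyte markers summed to 28.7 to 36.9 CPM in MT-F7 and 17.8 to 20.8 CPM in MC-F7. Of 4 tested, CORO1A and FCER1G were called higher, and CD68 and LCP1 were not called. The other 6, PTPRC among them, were too low to be tested. Trophectoderm markers summed to 7.56 to 8.72 CPM in MT-F7 and 52.2 to 78.5 CPM in MC-F7, with CDX2 at 0 in all libraries. Most of both sums was KRT7, at 63.7 CPM in MC-F7 and 6.28 CPM in MT-F7 (means). Of 3 tested, KRT7 and GATA2 were called lower and TFAP2A was not called. Mesendoderm markers summed to 3.98 to 4.08 CPM in MT-F7 and 10.7 to 11.9 CPM in MC-F7. Only EOMES and FOXA2 were tested, and both were called lower. MESP1, which the count table did not hold, was higher in every MT-F7 library. It was 7.06 ± 0.301 there and 3.89 ± 1.32 in MC-F7 (deposited TPM rescaled to 1000000 per library). The part of these cells in the integrin values below was not tested. In bulk RNA, fewer cells of a type and less RNA per cell cannot be told apart.

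All 10 subunits passed the filter on low counts. By edgeR's quasi-likelihood test, ITGB5 and ITGA7 were higher and ITGA6 and ITGB4 were lower in MT-F7. That is 4 of 10 at an adjusted p under 0.05, where 23.2% of the 13001 tested genes passed (11.9% higher and 11.3% lower). The CPM ranges of the groups did not overlap for 5 of the 10, against 40.0% of all tested genes. The median log2 fold change was -0.025 over the 10 subunits and -0.0026 over all tested genes, with 5 subunits on each side of 0. Positive values mean higher in MT-F7. The labels do not tell separate cultures from repeat preparations within a group, so the SDs and p values measure only the spread between these libraries, which may be technical.

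**Figure D1:**
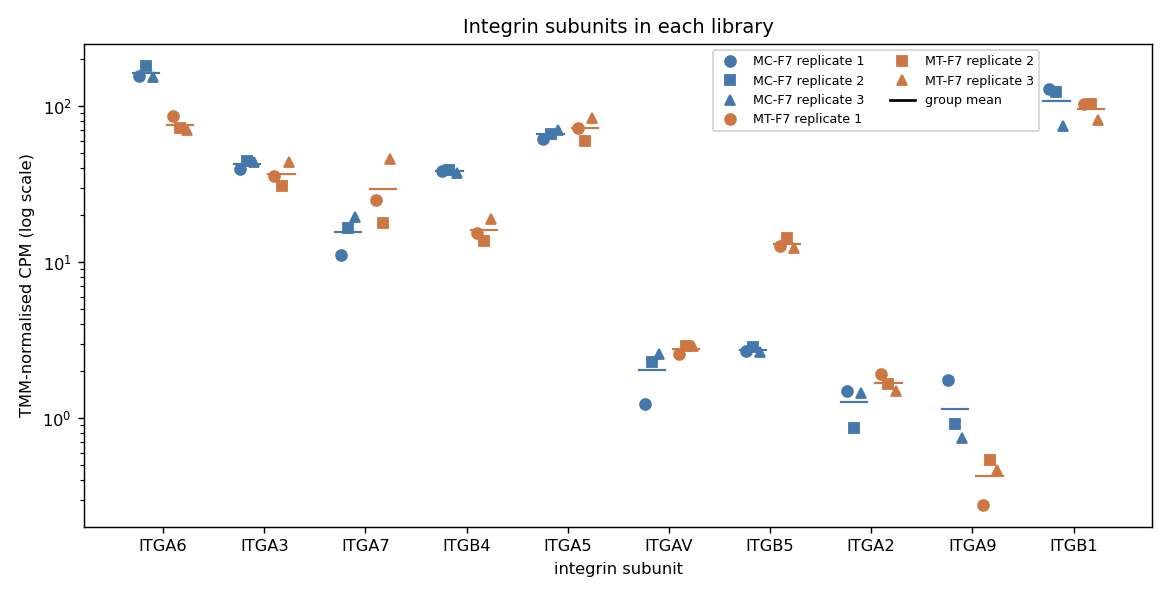
Level of each integrin subunit in each of the 6 libraries, as TMM-normalised CPM on a log axis; symbols are replicates, colours the groups and horizontal lines the group means (n = 3). The MT-F7 points of ITGA6 and ITGB4 lie below all MC-F7 points, those of ITGB5 lie above them, and the ranges of the groups overlap for ITGB1, ITGA3 and ITGA5.

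ITGA6, the laminin-binding chain also known as a surface marker of stem cells, had 156, 180 and 153 CPM in the 3 MC-F7 libraries and 85.9, 71.7 and 69.9 CPM in the 3 MT-F7 libraries. Every MT-F7 library was below every MC-F7 library. The mean was 163 ± 14.9 CPM in MC-F7 and 75.9 ± 8.78 CPM in MT-F7 (SD, n = 3), 2.15-fold higher in MC-F7. The log2 fold change was -1.10 (SE 0.153, 95% interval -1.44 to -0.77, adjusted p = 2.3e-04 by edgeR). The study listed ITGA6 and ITGA9 in the KEGG pathway of cell adhesion molecules among its genes lower in MT-F7. Those genes were called on these same samples, at a P value under 0.05 and a fold change cutoff.

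ITGB4, the beta chain that pairs with ITGA6 and anchors it to keratin filaments in hemidesmosomes, fell with it. Its level was 38.5, 38.7 and 37.1 CPM in MC-F7 and 15.5, 13.6 and 18.9 CPM in MT-F7. The MC-F7 libraries were nearly alike, and all MT-F7 libraries were far below them. The means were 38.1 ± 0.858 and 16.0 ± 2.68 CPM, 2.39-fold higher in MC-F7 (log2 fold change -1.26, SE 0.167, 95% interval -1.62 to -0.90, adjusted p = 1.7e-04 by edgeR). Per length, the ratio of ITGB4 to ITGA6 was 0.202 ± 0.0149 in MC-F7 and 0.183 ± 0.0424 in MT-F7. These ratios overlapped between the groups (exact permutation test, two-sided, p = 0.4).

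ITGB1, the shared beta chain of most of these alpha chains, did not pass the test. Its level was 128, 122 and 74.0 CPM in MC-F7 and 103, 102 and 81.3 CPM in MT-F7. Replicate 3 was the lowest library of both groups, and it is also the library with the highest mitochondrial share in each (28.3% in MC-F7 and 27.9% in MT-F7). Whether that share has a part in the ITGB1 value was not tested. The log2 fold change was -0.18 (SE 0.202, adjusted p = 0.57 by edgeR), and the 95% interval of -0.61 to 0.26 leaves room for a change of either sign. With both libraries numbered 3 left out, a fit added after the data were seen, it was -0.27 (SE 0.109, adjusted p = 0.076), and over the 18 fits run (the one reported and 17 alternatives) the adjusted p of ITGB1 lay between 0.076 and 0.93.

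ITGA7, a laminin-binding chain best known from muscle, had 11.1, 16.4 and 19.5 CPM in MC-F7 and 24.9, 17.7 and 45.8 CPM in MT-F7. The groups overlapped, since MT-F7 replicate 2 was below MC-F7 replicate 3, and MT-F7 replicate 3 stood far above the rest. The means were 15.7 ± 4.29 and 29.5 ± 14.6 CPM, with a log2 fold change of 0.91 (SE 0.305, 95% interval 0.25 to 1.57, adjusted p = 0.048 by edgeR). The call rested on single libraries. It was lost without MC-F7 replicate 1 (log2 fold change 0.71, adjusted p = 0.14), MC-F7 replicate 2 (0.94, adjusted p = 0.11), MT-F7 replicate 1 (1.00, adjusted p = 0.065) or MT-F7 replicate 3 (0.43, adjusted p = 0.22), and it was made in 11 of the 18 fits, over which its adjusted p ranged from 6.4e-04 to 0.22.

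ITGA3, which with ITGB1 binds laminin in epithelial basement membranes, had 39.2, 44.4 and 44.0 CPM in MC-F7 and 35.6, 30.8 and 43.4 CPM in MT-F7. MT-F7 replicate 3 was within the range of MC-F7 and the other MT-F7 libraries were below it. The difference did not pass (log2 fold change -0.22, SE 0.165, 95% interval -0.57 to 0.14, adjusted p = 0.38 by edgeR). Among the laminin-binding alpha chains ITGA6 was called lower, ITGA7 was called higher by a narrow margin, and ITGA3 was not called.

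**Figure D2:**
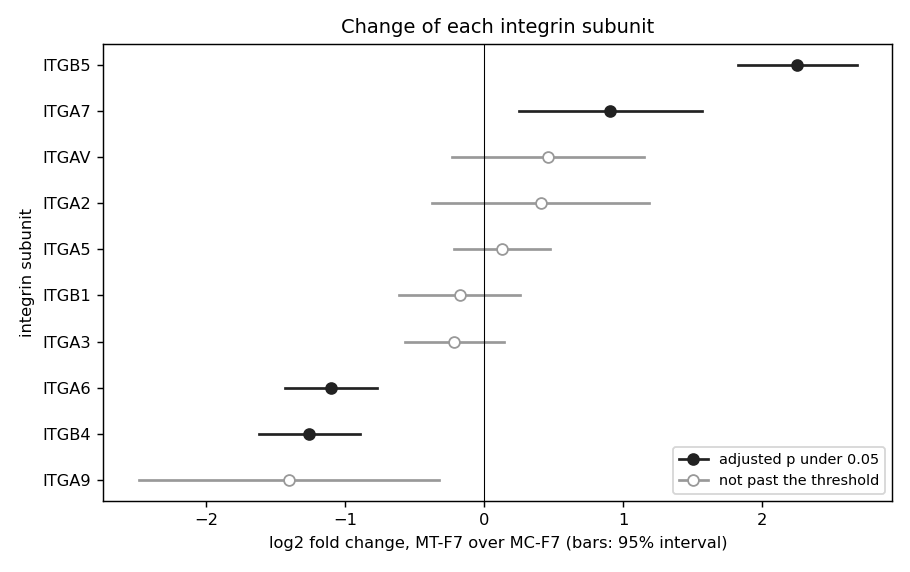
Log2 fold change of each of the 10 integrin subunits, MT-F7 over MC-F7, with a 95% interval computed from the edgeR test statistic (n = 3 libraries per group). Filled points passed an adjusted p under 0.05. ITGB5 is at 2.25, ITGA6 and ITGB4 are at -1.10 and -1.26, and the wide interval of the low-count ITGA9 runs from -2.48 to -0.33.

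ITGB5, the beta chain that pairs with ITGAV to bind vitronectin, had the largest absolute log2 fold change and the smallest p of the 10. It had 2.70, 2.86 and 2.67 CPM in MC-F7 and 12.7, 14.3 and 12.4 CPM in MT-F7, from 57 to 69 counts per MC-F7 library and 291 to 369 per MT-F7 library. The libraries of each group lay close together and the groups were far apart. The means were 2.74 ± 0.104 and 13.1 ± 1.01 CPM, 4.78-fold higher in MT-F7 (log2 fold change 2.25, SE 0.197, 95% interval 1.83 to 2.68, adjusted p = 6.4e-06 by edgeR). ITGB5, ITGA6 and ITGB4 passed in all 18 fits, including each of the 6 that left out 1 library.

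ITGAV, the alpha partner of ITGB5, was low in both groups. It had 1.24, 2.28 and 2.57 CPM in MC-F7 and 2.59, 2.90 and 2.89 CPM in MT-F7. All MT-F7 libraries were above all MC-F7 libraries, but the closest pair, 2.57 and 2.59 CPM, was nearly level. The log2 fold change of 0.46 did not pass (SE 0.319, 95% interval -0.23 to 1.15, adjusted p = 0.33 by edgeR). Its libraries held 28 to 75 counts, and the interval does not tell a small fall from a rise.

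ITGA5, the fibronectin-binding chain, had 61.3, 66.0 and 69.8 CPM in MC-F7 and 72.0, 59.6 and 83.5 CPM in MT-F7. MT-F7 spread to both sides of MC-F7. The log2 fold change was 0.13 (SE 0.160, 95% interval -0.22 to 0.47, adjusted p = 0.61 by edgeR), and without MT-F7 replicate 3 it was -0.0057. Neither a rise nor a fall of ITGA5 was shown.

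ITGA2 and ITGA9 were near the lower end of what was measured. ITGA2, which binds collagen with ITGB1, had 1.5, 0.871 and 1.45 CPM in MC-F7 and 1.91, 1.66 and 1.49 CPM in MT-F7, from 21 to 48 counts per library. The lowest MT-F7 library was just under the highest MC-F7 library, and the log2 fold change of 0.41 did not pass (SE 0.360, 95% interval -0.37 to 1.19, adjusted p = 0.45 by edgeR). ITGA9, which binds tenascin-C and osteopontin with ITGB1, had 1.77, 0.912 and 0.748 CPM in MC-F7 and 0.279, 0.541 and 0.467 CPM in MT-F7, resting on 40, 22 and 16 counts for MC-F7 and on 7, 14 and 11 counts for MT-F7. All MT-F7 libraries were lower, with a log2 fold change of -1.40 (SE 0.498, 95% interval -2.48 to -0.33). By edgeR its p was 0.015 before adjustment and 0.059 after it, just outside the threshold used here. The study, which states a P value under 0.05, counted ITGA9 among its lower genes. The adjusted p lay between 0.016 and 0.25 over the 17 fits that gave ITGA9 a value. ITGA9 passed with edgeR's likelihood ratio test (adjusted p = 0.016), without MC-F7 replicate 3 (adjusted p = 0.040) and without both libraries numbered 3 (log2 fold change -1.67, adjusted p = 0.043).

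To compare one subunit with another, the deposited values per length (called TPM) were rescaled to add up to 1000000 in each library. On this scale ITGA6 was the highest subunit in MC-F7, at 39.3 ± 5.15, next to ITGB1 at 36.2 ± 10.7, and their ranges overlapped. ITGA5 (19.0 ± 1.23), ITGA3 (11.0 ± 0.950), ITGB4 (7.88 ± 0.466), ITGA7 (5.02 ± 1.33) and ITGB5 (1.05 ± 0.0807) followed in MC-F7 without overlap between neighbours. ITGAV (0.724 ± 0.248), ITGA2 (0.393 ± 0.0977) and ITGA9 (0.272 ± 0.129) were the lowest in MC-F7, and each overlapped the next.

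The order differed in MT-F7. ITGB1 came first at 33.9 ± 5.76, followed by ITGA5 at 21.9 ± 2.68 and ITGA6 at 19.3 ± 2.60, whose ranges overlapped. ITGA3 (9.99 ± 1.27) and ITGA7 (9.85 ± 4.41) also overlapped in MT-F7. ITGB5 (5.29 ± 0.631) stood above ITGB4 (3.47 ± 0.419), the reverse of their order in MC-F7, and ITGAV (1.05 ± 0.0767), ITGA2 (0.555 ± 0.0860) and ITGA9 (0.108 ± 0.0355) were again last, without overlap.

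The shares of the 7 alpha chains in their summed level per length moved with these values. ITGA6 made up 53.4%, 53.8% and 48.2% of the sum in MC-F7 and 34.2%, 34.6% and 24.5% in the MT-F7 libraries. The means differed by -20.7 percentage points. ITGA5 went from 25.2% ± 1.39 to 34.8% ± 0.392 and ITGA7 from 6.61% ± 1.60 to 15.4% ± 5.35 (SD, n = 3). The ITGA3 share was 14.6% ± 0.353 in MC-F7 and 15.9% ± 0.565 in MT-F7. For 6 of the 7 chains the shares did not overlap between groups. When the sum was taken over all 18 alpha subunits this held for 5, since ITGA2 then overlapped (exact permutation p = 0.2), and the ITGA3 difference was 0.45 percentage points in place of 1.36. Over the 7 chains, the exact permutation p of these 6 was 0.1, the smallest that 3 against 3 libraries can give, and 0.117 after Benjamini-Hochberg adjustment over the 7 shares. With 3 libraries in each group no share could pass a threshold of 0.05. The 7 shares add up to the whole, so they do not vary independently of each other.

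**Figure D3:**
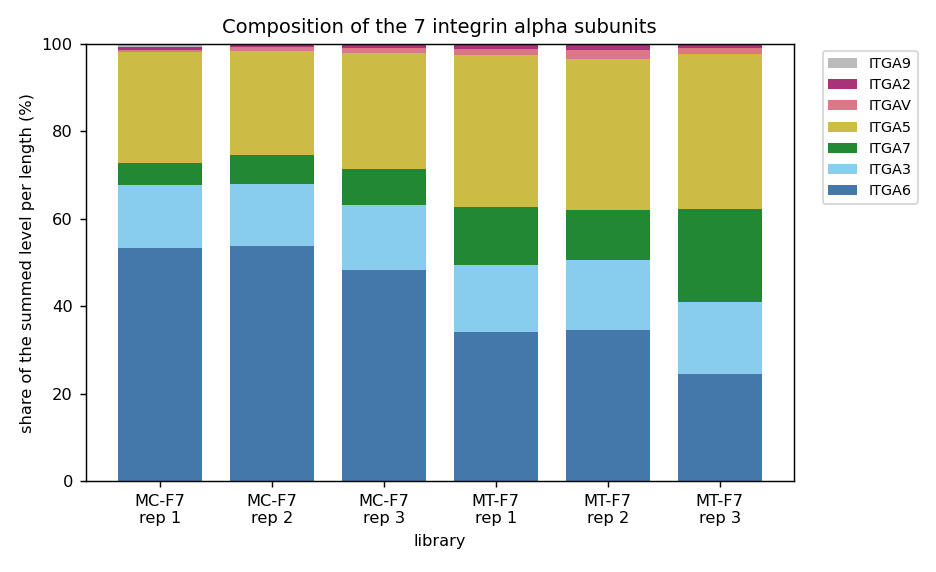
Share of each of the 7 integrin alpha chains in their summed level per length (%), 1 stacked bar per library, 3 libraries of MC-F7 and 3 of MT-F7. ITGA6 takes 48.2% to 53.8% of each MC-F7 bar and 24.5% to 34.6% of each MT-F7 bar, and ITGA5 and ITGA7 take larger shares in MT-F7.

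Among the 3 beta chains, ITGB1 kept the largest share, at 79.4% ± 4.78 in MC-F7 and 79.2% ± 2.86 in MT-F7 (exact permutation p = 0.9). ITGB4 was 18.2% ± 4.22 of the sum in MC-F7 and 8.35% ± 2.27 in MT-F7, and ITGB5 was 2.41% ± 0.561 and 12.5% ± 0.948. Neither pair of ranges overlapped (exact permutation p = 0.1 each, 0.15 adjusted over the 3 shares). Unlike the alpha shares, the beta shares were not redone over all beta chains. In MC-F7 the means of ITGB7 (2.79 ± 0.931) and ITGB3 (1.55 ± 0.481), both left out of the sum, were above that of ITGB5 (1.05 ± 0.0807). In MT-F7 ITGB7 was 1.80 ± 0.358 and ITGB3 was 3.18 ± 0.590, below ITGB5 (5.29 ± 0.631). The summed level per length of the 7 alpha chains was 75.7 ± 7.30 in MC-F7 and 62.7 ± 7.18 in MT-F7, with all MT-F7 libraries lower (exact permutation p = 0.1). That of the 3 beta chains was 45.1 ± 11.2 and 42.6 ± 5.88 and overlapped (exact permutation p = 0.6).

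Ratios between partner chains, and between the alpha chains ITGA6 and ITGA3, were computed in each library, on the same scale. ITGA6 over ITGB1 was 0.879, 1.07 and 1.49 in the MC-F7 libraries and 0.599, 0.505 and 0.620 in those of MT-F7. All MT-F7 ratios were lower, and MC-F7 replicate 3, the library with the lowest ITGB1, had the highest ratio. ITGB5 over ITGAV was 1.59 ± 0.648 in MC-F7 and 5.02 ± 0.391 in MT-F7, and ITGA6 over ITGA3 was 3.56 ± 0.295 and 1.96 ± 0.409. The groups did not overlap in these 3 ratios (exact permutation p = 0.1 each, 0.2 adjusted over 6 ratios). ITGA5 over ITGB1, the fibronectin receptor, was 0.569 ± 0.220 in MC-F7 and 0.668 ± 0.201 in MT-F7, and overlapped (exact permutation p = 0.5).

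**Figure D4:**
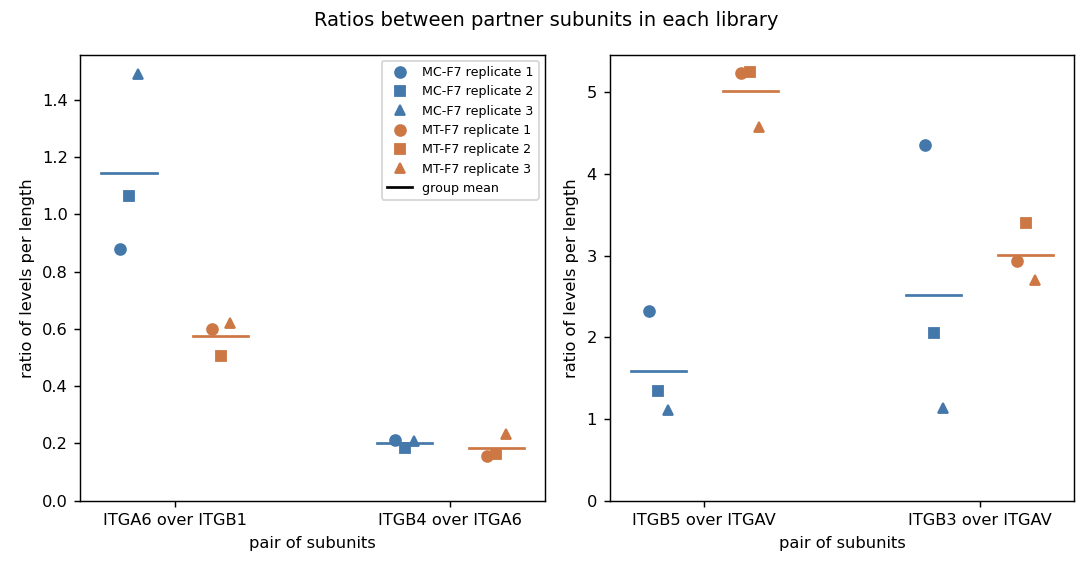
Ratio of the levels per length of partner subunits in each library; symbols are replicates, colours the groups and lines the group means (n = 3), with separate vertical scales for the left and right panels. ITGA6 over ITGB1 is lower and ITGB5 over ITGAV is higher in all MT-F7 libraries, while ITGB4 over ITGA6 and ITGB3 over ITGAV overlap between the groups.

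Of 16 other integrin subunits listed, 15 were in the count table and 7 were tested. Only ITGB3 was called, which is 14.3% of those tested, against 23.2% of all tested genes. ITGB3, another beta partner of ITGAV and the chain of the platelet receptor, had 9.25, 8.04 and 5.0 CPM in MC-F7 and 13.0, 16.9 and 13.4 CPM in MT-F7. All MT-F7 libraries were higher, with means of 7.43 ± 2.19 and 14.4 ± 2.13 CPM (log2 fold change 0.96, SE 0.231, adjusted p = 0.0095 by edgeR). It was called in 16 of the 18 fits and not by limma on log2(TPM + 1) (adjusted p = 0.052) or log2(TPM + 0.1) (adjusted p = 0.056). Without MC-F7 replicate 3 the count called higher was 2, and without MC-F7 replicate 1 or MT-F7 replicate 3 the count called lower was 1. Per length, ITGB3 over ITGAV was 2.51 ± 1.66 in MC-F7 and 3.01 ± 0.355 in MT-F7 and overlapped (exact permutation p = 0.5).

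Genes with a pattern like that of ITGB5 were sought by Pearson's r of log2 CPM over the 6 libraries among 11930 genes. The 3 nearest were DKK1, a secreted Wnt antagonist (0 CPM in all MC-F7 libraries and 6.45, 10.3 and 5.60 CPM in MT-F7), CAPN6, a calpain-family protein (2.17, 2.65 and 1.92 against 49.6, 76.0 and 50.2 CPM), and SIPA1L2 (11.2, 11.3 and 11.4 against 29.5, 33.0 and 28.4 CPM), each with r = 0.999. All 3 were higher in every MT-F7 library, as ITGB5 was. Over 6 libraries in 2 groups such an r mostly restates the difference between the groups, and 1074 genes had an r above 0.9.

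The genes around the integrins were described from lists of their ligands, partners and adaptors. Of 7 laminin chains described here, 2 were called higher in MT-F7 (11.9% of all tested genes were). LAMA4 was 1.31 ± 0.408 CPM in MC-F7 and 6.82 ± 1.34 CPM in MT-F7 (log2 fold change 2.39, SE 0.292, adjusted p = 9.3e-05 by edgeR). LAMA1, the alpha chain of the embryonic basement membrane, was 12.2 ± 1.64 and 25.2 ± 3.50 CPM (1.04, SE 0.179, adjusted p = 0.0011 by edgeR).

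Of 15 other ligands tested, 8 were higher and 1 was lower in MT-F7, with a median log2 fold change of 0.84. That is 60.0% called, against 23.2% of all tested genes. SPP1 (osteopontin), a ligand of ITGAV and ITGA9 receptors, was 3.92 ± 0.891 CPM in MC-F7 and 17.7 ± 3.31 CPM in MT-F7 (2.17, SE 0.229, adjusted p = 2.9e-05 by edgeR). FBN2, a microfibril protein with an RGD motif, was 21.1 ± 3.04 and 48.4 ± 3.35 CPM (1.19, SE 0.163, adjusted p = 2.1e-04 by edgeR). TGFB1, whose latent form is bound by ITGAV receptors, was the lower one, at 25.8 ± 1.02 and 14.4 ± 0.237 CPM (-0.84, SE 0.152, adjusted p = 0.0016 by edgeR). FN1 (fibronectin), also among the 8, was named after its values were seen because it is the ligand of ITGA5. It was 91.3 ± 7.89 CPM in MC-F7 and 179.7 ± 20.9 CPM in MT-F7 (0.98, SE 0.153, adjusted p = 6.0e-04 by edgeR), while ITGA5 was not called. Without MT-F7 replicate 3 the count of ligands called lower was 2. The list shares COL1A1 and COL1A2, neither of which was called, with the fibroblast markers, whose sum was also higher in MT-F7.

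Of 6 tested hemidesmosome and tetraspanin partners, 1 was higher and 1 lower (33.3% called, against 23.2% of all tested genes). CD9, a tetraspanin that sits beside laminin-binding integrins, was 570.0 ± 211 CPM in MC-F7 and 224 ± 51.9 CPM in MT-F7 (log2 fold change -1.35, SE 0.265, adjusted p = 0.0029 by edgeR), and it was not called by limma on log2(TPM + 1) (adjusted p = 0.065) or log2(TPM + 0.1) (adjusted p = 0.054). CD82, another tetraspanin, was 2.52 ± 0.579 and 8.05 ± 4.33 CPM (1.67, SE 0.349, adjusted p = 0.0042 by edgeR). The other tested partners, CD151, PLEC, CD81 and DST, were not called and were named after their values were seen. CD151 was 93.9 ± 14.8 CPM in MC-F7 and 90.0 ± 22.4 CPM in MT-F7, and PLEC was 171 ± 26.6 and 165 ± 48.3 CPM. KRT5 and KRT14, the keratins that ITGB4 is linked to in epidermal hemidesmosomes, were too low to be tested.

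All 25 listed adaptors and kinases of the integrin tail were tested, and 3 were higher and 3 lower, with a median log2 fold change of 0.11. The share called, 24.0%, is near the 23.2% of all tested genes. DAB2, an endocytic adaptor of beta chain tails, was 1.34 ± 0.281 CPM in MC-F7 and 6.31 ± 0.298 CPM in MT-F7 (2.23, SE 0.262, adjusted p = 6.6e-05 by edgeR). ILK, the integrin-linked kinase, was 64.4 ± 6.03 and 102.8 ± 5.25 CPM (0.67, SE 0.144, adjusted p = 0.0048 by edgeR), and its binding partner PARVA, named after its values were seen, was also called higher (1.04, adjusted p = 0.0062 by edgeR). FERMT3, a kindlin, was 1.96 ± 0.326 and 0.493 ± 0.266 CPM (-1.98, SE 0.440, adjusted p = 0.0060 by edgeR). Its MT-F7 libraries held only 20, 10 and 7 counts. SHARPIN, which holds ITGB1 inactive, was 52.5 ± 4.20 and 34.3 ± 5.27 CPM (-0.61, SE 0.161, adjusted p = 0.015 by edgeR). SHARPIN was not called without MT-F7 replicate 1 (adjusted p = 0.084) or MT-F7 replicate 2 (adjusted p = 0.055), where the number of adaptors called lower was 1.

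**Figure D5:**
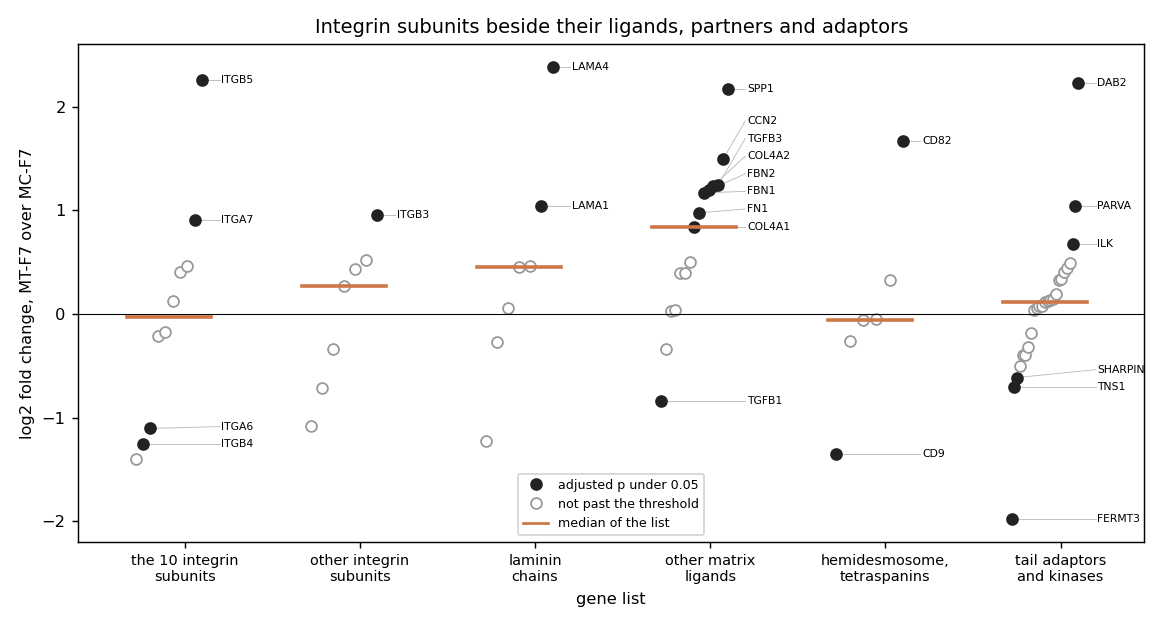
Log2 fold change, MT-F7 over MC-F7, of each tested gene in the 10 integrin subunits and in 5 lists of related genes; filled and named points passed an adjusted p under 0.05 (edgeR, n = 3 libraries per group), and the coloured line is the median of the list. The median of the 10 integrin subunits lies near 0 with calls on both sides, and the list of other matrix ligands has its median at 0.84.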

How the data were processed

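RNA-seq of MC-F7 and MT-F7 was analysed in 6 libraries, 3 of each. The authors aligned reads to the Bos taurus genome and deposited raw counts per Entrez gene (19163 genes, 89 without a symbol). The submitters' processing notes name HISAT2 2.0.5, featureCounts 1.5.0-p3 and edgeR, and the genome build is not given in the sources used here. The authors also deposited a table that they call TPM (21653 lines, 21357 genes). Its columns do not add up to 1000000, and TPM divided by count was constant over the libraries, within 0.1%, for 9681 of 9682 genes with at least 50 counts in each, so it was rescaled to 1000000 per library for levels per length, shares, ratios and sums, and it was tested with limma as an alternative. Reads of near-identical genes may have been shared or lost in counting. No sequences or coordinates are given, because no genome was used here.

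Counts were filtered with filterByExpr (minimum count 10, minimum total 15), normalised by TMM (factors 0.971 to 1.04) and tested with the quasi-likelihood test of edgeR 4.0.16 (R 4.3.3), two-sided, without a block, with Benjamini-Hochberg adjustment over 13001 genes and a threshold of 0.05. Shares, ratios and sums were compared by exact permutation tests, two-sided, in Python 3.11.15 with scipy 1.17.1, pandas 2.3.3, numpy 2.4.6 and matplotlib 3.10.9. The edgeR fit was tested on simulated data with known changes, drawn with 12 seeds, and in 3 of them the share of calls on unchanged genes was above 0.05.

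Alternatives were RLE factors, library size only, DESeq2 1.42.0, edgeR's likelihood ratio test, 2 other count filters, the replicate number as a block, no mitochondrial genes, each library left out, limma 3.58.1 on log2(TPM + 1) and log2(TPM + 0.1), and, for shares, all alpha subunits. A fit without both libraries numbered 3 was added after seeing the data. The genes named were all 10 members, every other integrin subunit called, up to 2 called higher and 2 lower with the smallest adjusted p in each list of ligands, partners and adaptors, and the 3 genes most like the member with the smallest p. The members and lists were chosen with earlier results of these data known. A gene of the laminin list was taken out afterwards and is not reported here, so the count and median of that list are over the remaining genes.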

Additional observations from a re-analysis of the deposited data

How the results depend on the processing

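Of the 10 integrin subunits, 2 were called higher and 2 lower. The lower count was 2 or 3 in every alternative. The higher count was 1 with at least 10 counts in every library and under both limma fits of the TPM values (1 added or 0.1 added before log2), and 1 to 2 when single libraries were left out; the subunit lost was ITGA7 each time. ITGA5 changed sign without MT-F7 replicate 3 (log2 fold change -0.0057; -0.0057 to 0.25 over the fits that left out 1 library). Over all alpha subunits, 18 in place of 7, the share of ITGA5 differed by 6.62 percentage points and that of ITGA3 by 0.45. With the replicate block 2 subunits were higher and 2 lower, 6 adaptors and 4 laminin chains were higher, and 4674 of all tested genes passed in place of 3016. Without MC-F7 replicate 2, 1914 passed. The deviations of same-numbered libraries correlated at 0.127, 0.041 and 0.392, the labels do not pair the numbers, and the block is given only here. ITGA9 had no value with at least 10 counts in every library, because that filter drops it. The other causes were not tested. At these depths ITGA2, ITGA9 and ITGAV rest on 7 to 75 counts per library, and counting error limits their precision.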

Other observations

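The integrin subunits known from white blood cells were not alike in these libraries. ITGAX, which the count table did not hold, was at 1.60 ± 0.830 in MC-F7 and 1.33 ± 0.359 in MT-F7 (TPM rescaled to 1000000, n = 3), and overlapped between the groups. Others were at or near 0. ITGAD had 0 counts in all 6 libraries, ITGAM had 0 in all MC-F7 libraries and at most 3 in MT-F7, ITGAL had at most 4 in any library, and ITGB2, the beta chain of these receptors, had 5, 3 and 0 counts in MC-F7 and 0 in all MT-F7 libraries. ITGB6, an epithelial partner of ITGAV, was also at 0 throughout, and ITGA4 had at most 3 counts. These genes were named after their values were seen and were not tested. A count of 0 allows a level of up to 0.120 to 0.137 CPM in a library.

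Some integrin subunits outside the 10 were well measured but were not called. ITGAE, known from lymphocytes in epithelia, was 19.6 ± 2.57 CPM in MC-F7 and 23.7 ± 2.43 CPM in MT-F7 (log2 fold change 0.27, 95% interval -0.088 to 0.64, adjusted p = 0.27 by edgeR). ITGB7, its beta partner, was 6.31 ± 2.30 and 3.85 ± 0.940 CPM (log2 fold change -0.71, 95% interval -1.34 to -0.087, adjusted p = 0.095 by edgeR). ITGA2B, the platelet partner of ITGB3, was 11.4 ± 3.34 and 9.02 ± 4.49 CPM (adjusted p = 0.49 by edgeR), and its ranges overlapped between the groups while those of ITGB3 did not.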
